A study of Mus musculus with 6 samples.

Results

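The genes described here are 40 mouse genes of sterol and fatty acid synthesis, taken by name from a list and compared between cells given 4-hydroxytamoxifen (4-OHT) and cells given ethanol. They comprised 18 sterol synthesis enzymes, 13 fatty acid synthesis enzymes, 5 regulators of the SREBP transcription factors, 2 sterol transport genes and 2 genes of glycerolipid synthesis. All 40 were among the 15933 genes with enough counts to be tested, out of 35856 genes in all. The 6 libraries were made from total RNA, depleted of ribosomal RNA, with a stranded kit.

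Cholesterol is built from acetyl-CoA through mevalonate, farnesyl diphosphate, squalene and lanosterol, and fatty acids are built from acetyl-CoA through malonyl-CoA and are then desaturated and elongated. The membrane-bound SREBP factors switch on most genes of both routes: when sterols are scarce, Scap carries SREBP to the Golgi for cleavage, and when sterols are plentiful the Insig proteins hold Scap back in the endoplasmic reticulum. LXR receptors, which oxysterols activate, switch on sterol efflux genes such as Abca1 and also the SREBP-1c form made from Srebf1.

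In the 4OHT arm, the 3 libraries were labelled as Mdm2 deletion in p53-null fibroblasts, T cell lymphoma and sarcoma, with 4-OHT given for 48, 6 and 48 h. The EtOH arm held 1 library for each of the same cell types, labelled control, given ethanol vehicle for the same times. Per the labels' protocols, all cells came from Mdm2 fl/fl p53-/- mice, the tumour cells from short-term culture and the fibroblasts from ear punches of adults. All were infected with a retrovirus that expressed GFP, either alone or with CreERT2, the Cre recombinase switched on by 4-OHT, and the labels do not say which vector each library carried. The 4-OHT dose is written as 1 mM, the serum was fetal bovine at 10%, and the lymphoma was grown in another medium than the other cells. With no library of GFP-only cells labelled as given 4-OHT, the labelled deletion and the exposure to 4-OHT cannot be told apart. The number of mice was not given in the sources used here.

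Several measurements went against the labels, so groups are called by their label only. Mdm2, the targeted gene, which encodes a ubiquitin ligase of p53, stood at 30.5, 31.1 and 31.1 TMM-scaled CPM (counts scaled to library size) in the 4OHT libraries labelled fibroblasts, lymphoma and sarcoma, against 28.4, 28.0 and 28.5 CPM in the matching EtOH libraries. It was thus not lower in any library labelled deleted (log2 fold change 0.13 ± 0.05 SE, edgeR adjusted p = 0.0539). Counts were summed over all targets of the gene, so a loss of some exons was not checked by this value. The T cell markers Cd3d, Cd3e, Cd247 and Cd2 were at 0 in every library, also in both labelled lymphoma, and the 8 T cell markers together held 3.72 to 4.70 CPM in the 4OHT libraries and 1.96 to 2.20 CPM in the EtOH libraries. Lck carried most of that sum, with 4.07, 3.68 and 4.12 CPM in the 4OHT libraries, against 2.04, 1.89 and 2.15 CPM in the EtOH libraries (same order of labels). Lck rose by 0.96 on the log2 scale (edgeR adjusted p = 8.05e-05), and the other 7 had too few counts to be tested. The 8 fibroblast markers held 7462 to 7623 CPM in the 4OHT libraries and 13139 to 13602 CPM in the EtOH libraries, and 7 of the 8 fell. Between libraries of 1 arm with different cell type labels, the log2 CPM of 10857 genes differed with an SD of 0.111 to 0.166, and between arms with an SD of 0.497 to 0.518. Libraries of 1 arm still differed by more than counting error (chi-square per gene 11.2 to 112), and none was a copy of another. Total estimated counts were between 26243064 and 37517726 per library.

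Promoter sequences of 6 members are shown because SREBP acts at promoters together with the factors that bind CCAAT and GC boxes, and because these 6 span the responses described here. Hmgcs1 holds the sterol regulatory element (SRE), Tm7sf2, Acss2 and Elovl6 were among the members that fell most, and Srebf1 and Abca1 rose. Each is 300 bases, from 250 before to 50 after the start site, from RefSeq (GRCm38.p6), and the capitals mark matches on either strand to TCACNCCAC (the SRE), CACGTG (an E-box), CCAAT or GGGCGG (a GC box), with no overlap between matches. The windows are chr13:119690101-119690400, plus strand for Hmgcs1, chr19:6067801-6068100, minus strand for Tm7sf2, chr2:155517793-155518092, plus strand for Acss2, chr3:129532136-129532435, plus strand for Elovl6, chr11:60220578-60220877, minus strand for Srebf1 and chr4:53159846-53160145, minus strand for Abca1.
Hmgcs1: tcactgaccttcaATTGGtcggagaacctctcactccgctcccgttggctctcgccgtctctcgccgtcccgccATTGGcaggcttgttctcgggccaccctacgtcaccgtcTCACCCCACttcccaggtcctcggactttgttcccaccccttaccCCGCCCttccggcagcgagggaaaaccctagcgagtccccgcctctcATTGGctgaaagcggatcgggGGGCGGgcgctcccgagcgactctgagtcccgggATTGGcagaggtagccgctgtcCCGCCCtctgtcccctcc
Tm7sf2: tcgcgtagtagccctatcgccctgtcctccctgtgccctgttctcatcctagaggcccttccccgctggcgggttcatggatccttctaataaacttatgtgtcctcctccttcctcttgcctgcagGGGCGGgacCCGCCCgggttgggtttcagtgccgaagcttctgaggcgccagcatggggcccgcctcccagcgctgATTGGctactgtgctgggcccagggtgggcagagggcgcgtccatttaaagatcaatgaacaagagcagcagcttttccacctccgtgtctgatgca
Acss2: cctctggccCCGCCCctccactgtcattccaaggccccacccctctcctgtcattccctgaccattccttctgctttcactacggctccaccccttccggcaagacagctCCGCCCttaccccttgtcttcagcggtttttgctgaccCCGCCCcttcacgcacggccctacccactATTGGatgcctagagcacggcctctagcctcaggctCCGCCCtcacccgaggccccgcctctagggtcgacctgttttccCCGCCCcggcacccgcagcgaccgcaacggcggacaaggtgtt
Elovl6: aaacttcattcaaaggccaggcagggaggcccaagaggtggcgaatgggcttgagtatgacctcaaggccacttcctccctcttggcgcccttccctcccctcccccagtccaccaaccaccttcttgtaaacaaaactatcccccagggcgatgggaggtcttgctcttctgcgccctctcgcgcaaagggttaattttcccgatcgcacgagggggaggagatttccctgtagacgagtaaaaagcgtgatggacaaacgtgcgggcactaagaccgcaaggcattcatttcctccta
Srebf1: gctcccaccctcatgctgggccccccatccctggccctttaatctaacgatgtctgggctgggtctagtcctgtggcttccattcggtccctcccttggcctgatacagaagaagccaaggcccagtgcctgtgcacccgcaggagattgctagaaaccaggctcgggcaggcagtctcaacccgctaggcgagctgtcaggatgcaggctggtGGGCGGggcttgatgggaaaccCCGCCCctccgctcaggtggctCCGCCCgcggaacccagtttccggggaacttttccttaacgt
Abca1: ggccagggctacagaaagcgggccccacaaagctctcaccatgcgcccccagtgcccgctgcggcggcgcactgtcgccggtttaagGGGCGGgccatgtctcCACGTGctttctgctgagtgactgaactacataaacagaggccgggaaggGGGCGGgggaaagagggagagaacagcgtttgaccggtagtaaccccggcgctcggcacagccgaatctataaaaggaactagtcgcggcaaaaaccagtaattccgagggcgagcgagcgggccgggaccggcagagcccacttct
The Hmgcs1 window held 1 SRE match, TCACCCCAC, which begins 137 bases before the start site, with 4 CCAAT and 3 GC box matches. Tm7sf2 held 1 CCAAT and 2 GC box matches, Acss2 held 1 CCAAT and 5 GC box matches, and Elovl6 held no match to any of these motifs. Srebf1 held 3 GC box matches, and Abca1 held 1 E-box and 2 GC box matches. Srebf1 has 3 windows listed, and the CCAAT box counted for it below lies in a window not printed. Windows were also picked for Pmvk and Lpin1, which both fell. They held no match, like that of Elovl6, and are not printed. Pmvk has 2 windows listed, and its CCAAT box lies in the one not picked.

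Of the 40 members, 33 had a promoter in the RefSeq table, against which 27025 genes with a promoter were searched the same way. A CCAAT box was present for 26 of the 33 (78.8%, against 41.1% of all genes) and a GC box for 26 (78.8%, against 38.2%), counting all windows listed for a gene. Each motif was held by 18 of the 22 members that fell and by 8 of the other 11, so neither was particular to those that fell. The 27025 genes were not limited to genes tested here, whereas all members were tested. Both motifs were present for 22 members (66.7%, against 15.8% of all genes). An E-box was found for 7 members (21.2%, against 8.09%), namely Abca1, Dhcr7, Elovl5, Hsd17b7, Insig1, Sc5d and Scap. They comprised 2 of the 22 members that fell and 5 of the other 11. Of the 33, Hmgcs1 alone held the letters TCACNCCAC searched for the SRE (3.03%, against 1.44%). SREs with other letters were not searched, so the absence of an SRE from the other members was not tested. For the LXR element, only an exact direct repeat of AGGTCA with a spacer of 4 bases was searched. No member held these exact letters, which 0.0148% of all genes held. Elements with other letters were not searched, so the absence of an LXR element, also from the Abca1 window printed above, was not tested. These are matches of letters within 300 bases and say nothing of binding. Fdps, Fdft1, Sqle, Stard4, Scd1, Scd2 and Fads1 had no entry.

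Taken by count, 29 of the 40 members fell in the 4OHT libraries, 3 rose (Sc5d, Srebf1 and Abca1) and 8 did not pass the test (Msmo1, Hsd17b7, Srebf2, Scap, Acaca, Acacb, Me1 and Elovl5). Over all genes tested, 24.6% fell and 25.0% rose at the same threshold (edgeR quasi-likelihood test over the 3 labelled pairs, Benjamini-Hochberg adjusted p under 0.05). The median log2 fold change of the members was -0.25, against 0.02 for all genes tested. The changes were small: they ranged from -0.64 for Scd2 to 0.37 for Abca1, and no member differed by 2-fold. In bulk RNA, fewer cells of a type and less RNA per cell cannot be told apart. As a share of the estimated counts of a library, the 40 members held 0.588% to 0.606% in the 4OHT libraries and 0.696% to 0.730% in the EtOH libraries. With limma on log2(TPM + 1) in place of edgeR on counts, 10 members fell and 1 rose, while the median log2 fold change of the members was -0.21. In that fit, 1552 of all 15933 genes tested fell and 2352 rose.

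**Figure D1:**
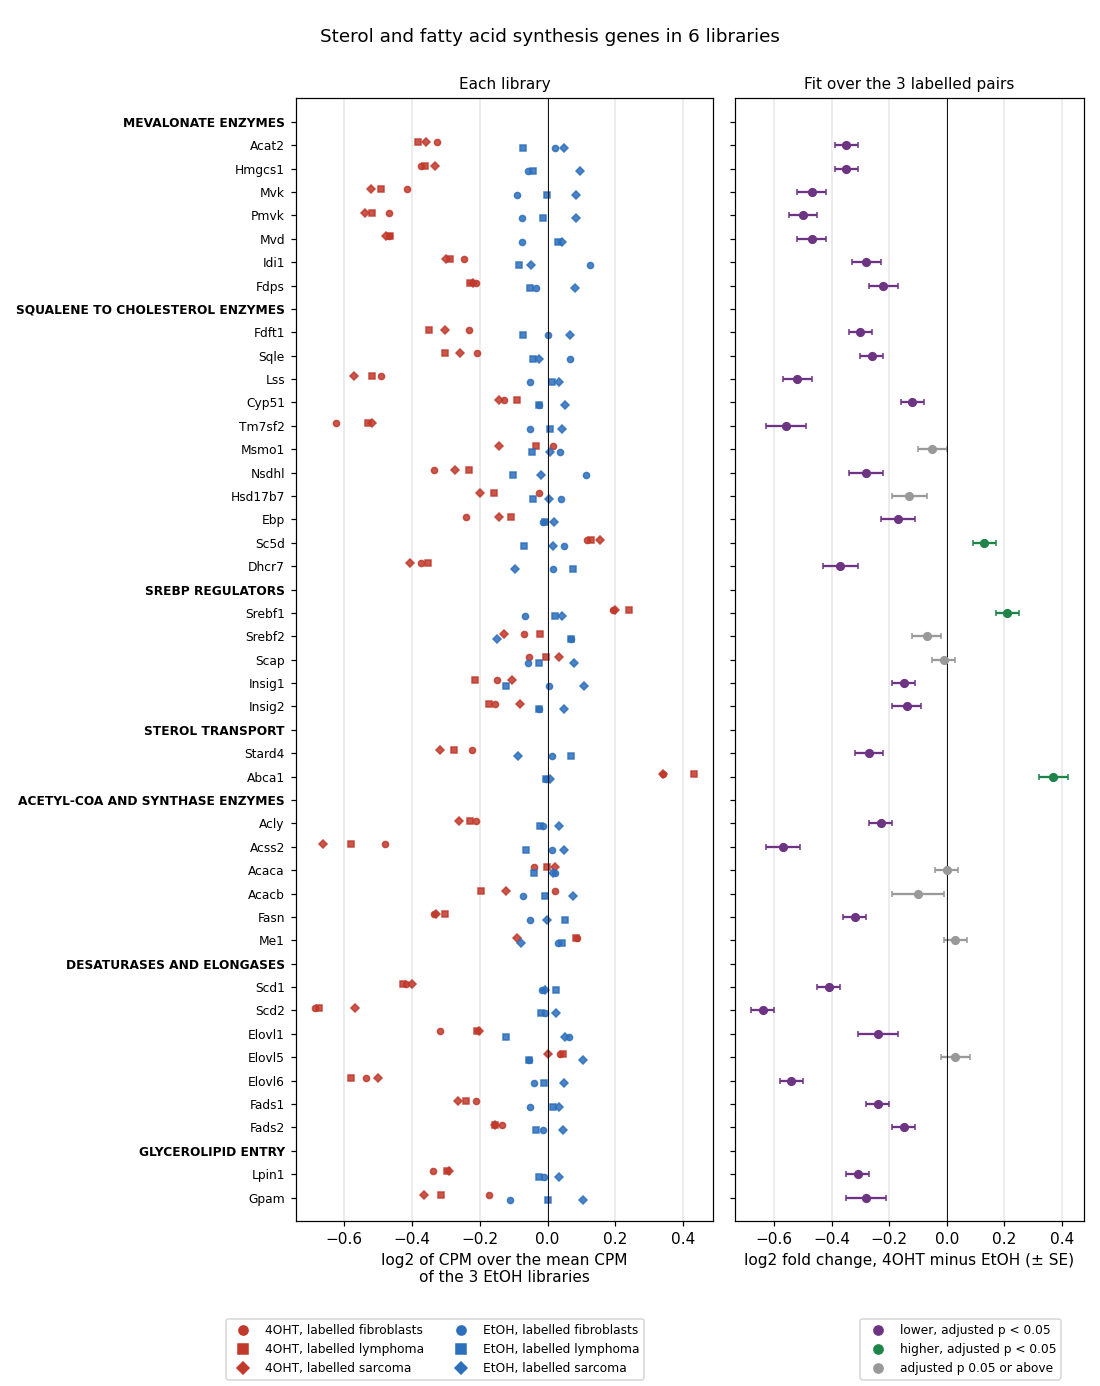
Left, log2 of the TMM-scaled CPM of each member in each library over the mean of the 3 EtOH libraries, with the 4OHT libraries in red, the EtOH libraries in blue and the cell type label as the marker shape. Right, the log2 fold change, 4OHT minus EtOH, with its SE from edgeR, coloured by call. The 29 members that fell lie left of 0, from -0.64 (Scd2) to -0.12 (Cyp51), and Sc5d, Srebf1 and Abca1 lie right of it.

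The split between arms was also visible library by library. For 28 members all 3 4OHT libraries lay below all 3 EtOH libraries, where 27.8% of all genes tested did so, and for 3 members all 4OHT libraries lay above, where 27.7% did. Within labelled pairs, 30 members were below EtOH in all 3 pairs, against 33.6% of all genes, and 3 were above in all 3, against 34.6%. By deposited TPM the number below in all 3 pairs was 22, and the share over all genes by TPM was not counted. The median log2 ratio of the members was -0.23 in the pair labelled fibroblasts, -0.21 in the pair labelled lymphoma and -0.25 in the pair labelled sarcoma, while that of all genes tested was 0.00, 0.00 and 0.01. The lymphoma pair had 6 h of labelled exposure and the other pairs 48 h, and the label and the time cannot be told apart.

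No member passed the test of a difference in response between labels. In edgeR interaction terms, which rest on 1 residual degree of freedom, 0 members passed for the pair labelled lymphoma against the others, where 0.0628% of all genes tested did, and 0 members had an unadjusted p under 0.05. For the pair labelled fibroblasts 0 members passed, against 0.791% of genes, with 3 at an unadjusted p under 0.05 and the lowest adjusted p at 0.445 (Gpam). For the pair labelled sarcoma 0 passed, against 0.232%, with 2 at an unadjusted p under 0.05 and the lowest adjusted p at 0.546 (Elovl5). The fitted differences of the lymphoma pair from the others ranged from -0.13 to 0.23 on the log2 scale over the members.

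The mevalonate enzymes, which turn acetyl-CoA into farnesyl diphosphate, fell throughout. Of these, 7 of 7 passed the test, where 24.6% of all genes tested fell, and the median log2 fold change was -0.35. Pmvk, phosphomevalonate kinase, stood at 84.5, 81.6 and 80.5 CPM in the 4OHT libraries (labels fibroblasts, lymphoma and sarcoma, in this order throughout), against 111, 116 and 124 CPM in the EtOH libraries. The arms did not overlap, and Pmvk fell by 0.50 ± 0.05 on the log2 scale (SE, 3 pairs, edgeR adjusted p = 5.89e-06). Mvk, the kinase that acts just before it, had 40.4, 38.3 and 37.5 CPM in the 4OHT libraries, against 50.6, 53.8 and 57.1 CPM in the EtOH libraries. Mvk fell by 0.47 ± 0.05, and each 4OHT library was below its EtOH partner (edgeR adjusted p = 2.71e-05). Mvd, the decarboxylase that makes isopentenyl diphosphate, had 39.0, 39.1 and 38.8 CPM in the 4OHT libraries, nearly the same in each, against 51.2, 55.2 and 55.6 CPM in the EtOH libraries. Its log2 fold change was -0.47 ± 0.05 (edgeR adjusted p = 6.33e-06).

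At the entry to the pathway, Hmgcs1, the HMG-CoA synthase whose promoter carries the SRE printed above, had 281, 283 and 289 CPM in the 4OHT libraries, against 350, 353 and 389 CPM in the EtOH libraries. The arms were apart by more than the spread within either, and Hmgcs1 fell by 0.35 ± 0.04 (edgeR adjusted p = 4e-05). Acat2, which condenses acetyl-CoA in the cytosol, stood at 135, 130 and 132 CPM in the 4OHT libraries, against 172, 161 and 175 CPM in the EtOH libraries, a log2 fold change of -0.35 ± 0.04 (edgeR adjusted p = 3.76e-05). Of the 31-base words of Acat2, 78.5% also occur in another gene, mostly Acat3, which held 1.05 to 1.72 CPM, so the split between this pair is uncertain. Idi1, the isopentenyl diphosphate isomerase, fell by 0.28, and Fdps, which makes farnesyl diphosphate, fell by 0.22. Fdps likewise shares 81.5% of its words, mostly with Gm43738, which held 2.10 to 4.04 CPM.

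From squalene to cholesterol, 8 of 11 enzymes fell, 1 rose and 2 did not pass the test, with a median log2 fold change of -0.26. The shares over all genes tested were 24.6% that fell and 25.0% that rose. Tm7sf2, a sterol reductase of this branch, had 9.74, 10.4 and 10.5 CPM in the 4OHT libraries, against 14.5, 15.1 and 15.5 CPM in the EtOH libraries. It was the sterol enzyme that fell most, by 0.56 ± 0.07 on the log2 scale (edgeR adjusted p = 3.3e-05). Lss, lanosterol synthase, which closes the sterol rings, stood at 96.5, 94.8 and 91.2 CPM in the 4OHT libraries, against 131, 137 and 139 CPM in the EtOH libraries. The arms did not overlap, and Lss fell by 0.52 ± 0.05 (edgeR adjusted p = 2.55e-06). Dhcr7, the reductase of the last step to cholesterol, had 13.2, 13.4 and 12.9 CPM in the 4OHT libraries, against 17.3, 18 and 16 CPM in the EtOH libraries, and fell by 0.37 ± 0.06 (edgeR adjusted p = 0.000519). Fdft1, squalene synthase, stood at 169, 156 and 161 CPM in the 4OHT libraries, against 199, 189 and 208 CPM in the EtOH libraries, and fell by 0.30 ± 0.04 (edgeR adjusted p = 0.000195).

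Among the rest of this branch, Nsdhl, a sterol dehydrogenase, fell by 0.28 and Sqle, squalene monooxygenase, fell by 0.26. Ebp, a sterol isomerase, fell by 0.17 and Cyp51, lanosterol demethylase, fell by 0.12. The call of Ebp was lost without any 1 of the 3 pairs (log2 fold change between -0.20 and -0.11 over 13 alternatives), and that of Cyp51 without the pair labelled lymphoma or sarcoma (between -0.15 and -0.08). Sc5d, a sterol desaturase, went the other way, with 70.4, 71.0 and 72.3 CPM in the 4OHT libraries, against 67.2, 61.9 and 65.7 CPM in the EtOH libraries. It rose by 0.13 ± 0.04 on the log2 scale (edgeR adjusted p = 0.0209), a call that was lost without the pair labelled lymphoma or sarcoma. Msmo1, a methylsterol oxidase, had a log2 fold change of -0.05 and Hsd17b7, a sterol ketone reductase, one of -0.13, and the libraries of the arms overlapped for both.

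The SREBP regulators did not move together: 2 of 5 fell, 1 rose and 2 did not pass the test, with a median log2 fold change of -0.07. Over all genes tested 24.6% fell and 25.0% rose, and 5 genes are too few to set apart from these shares. Srebf1, which encodes SREBP-1, had 249, 257 and 250 CPM in the 4OHT libraries, against 208, 221 and 224 CPM in the EtOH libraries. All 4OHT libraries were above all EtOH libraries, and Srebf1 rose by 0.21 ± 0.04 (edgeR adjusted p = 0.00152). Srebf2, which encodes SREBP-2, the form that mainly drives sterol genes, stood at 277, 286 and 266 CPM in the 4OHT libraries, against 305, 305 and 262 CPM in the EtOH libraries. The pair labelled sarcoma had no lower value in the 4OHT library, the arms overlapped, and the log2 fold change was -0.07 ± 0.05 (edgeR adjusted p = 0.236). Scap, the escort of SREBP, had 72.3, 74.9 and 76.9 CPM in the 4OHT libraries, against 72.1, 73.8 and 79.3 CPM in the EtOH libraries. Its log2 fold change was -0.01 ± 0.04 (edgeR adjusted p = 0.897), and its sign changed under 3 of 13 alternatives.

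Both Insig genes fell by a little. Insig1, itself a SREBP target, had 77.2, 73.7 and 79.5 CPM in the 4OHT libraries, against 85.9, 78.6 and 92.2 CPM in the EtOH libraries. Its arms overlapped, through the pair labelled sarcoma in the 4OHT arm and the pair labelled lymphoma in the EtOH arm, while each 4OHT library was below its own partner (log2 fold change -0.15 ± 0.04, edgeR adjusted p = 0.00956). Insig2 had 26.2, 25.9 and 27.6 CPM in the 4OHT libraries, against 28.7, 28.7 and 30.2 CPM in the EtOH libraries. It fell by 0.14 ± 0.05 (edgeR adjusted p = 0.0416), and the call was lost without any 1 of the 3 pairs.

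Srebf1 is transcribed from an upstream and a downstream first exon. The target with the upstream start, Srebf1-201, took 82.8%, 82.8% and 84.2% of the estimated counts of the gene in the 4OHT libraries and 84.4%, 84.9% and 86.4% in the EtOH libraries. Srebf1-207, with a start further downstream, took 11.3%, 8.97% and 9.52% in the 4OHT libraries and 9.08%, 9.18% and 8.21% in the EtOH libraries. The upstream target thus held most counts in both arms. Its share was lower in every 4OHT library than in any EtOH library, while the arms overlapped for Srebf1-207, and neither share was tested. These targets share most of their sequence, so the split is an estimate. The rise of Srebf1 given above is that of all its targets together. The targets were not assigned to protein forms, so whether the SREBP-1c form rose was not tested.

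**Figure D2:**
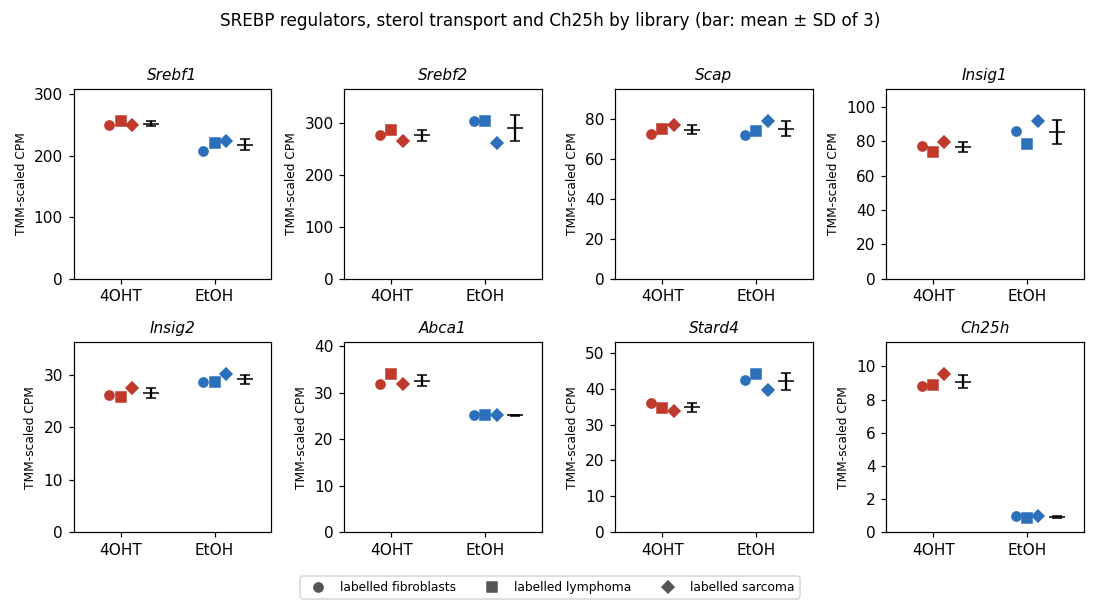
TMM-scaled CPM (vertical axis, from 0) of the 5 SREBP regulators, the sterol transport genes Abca1 and Stard4, and Ch25h in each library, with 4OHT left of EtOH, the cell type label as the marker shape and a bar for the mean ± SD of 3 libraries. Srebf1, Abca1 and Ch25h are higher in all 4OHT libraries, Stard4 and Insig2 lower, and the arms overlap for Srebf2, Scap and Insig1.

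The sterol transport genes moved in opposite directions. Abca1, which exports cholesterol to apolipoproteins, had 31.9, 34.0 and 31.9 CPM in the 4OHT libraries, against 25.1, 25.1 and 25.3 CPM in the EtOH libraries. The arms were far apart relative to their spread, and Abca1 rose by 0.37 ± 0.05 (edgeR adjusted p = 0.000117). Stard4, a carrier that moves cholesterol between membranes and a SREBP target, stood at 36.0, 34.7 and 33.7 CPM in the 4OHT libraries, against 42.4, 44.1 and 39.6 CPM in the EtOH libraries. Stard4 fell by 0.27 ± 0.05, with no overlap between arms (edgeR adjusted p = 0.00061).

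Of the 6 enzymes that supply acetyl-CoA and NADPH or build palmitate, 3 fell and 3 did not pass the test. Their median log2 fold change was -0.17, and 24.6% of all genes tested fell. Acss2, which makes acetyl-CoA from acetate, had 26.6, 24.8 and 23.4 CPM in the 4OHT libraries, against 37.4, 35.5 and 38.3 CPM in the EtOH libraries. It fell by 0.57 ± 0.06 (edgeR adjusted p = 7.96e-06). Fasn, fatty acid synthase, stood at 776, 794 and 779 CPM in the 4OHT libraries, against 945, 1014 and 978 CPM in the EtOH libraries. It fell by 0.32 ± 0.04, with every 4OHT library below every EtOH library (edgeR adjusted p = 8.31e-05). Acly, which makes acetyl-CoA from citrate, had 582, 575 and 562 CPM in the 4OHT libraries, against 668, 664 and 690 CPM in the EtOH libraries, and fell by 0.23 ± 0.04 (edgeR adjusted p = 0.000938).

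The acetyl-CoA carboxylases, which make malonyl-CoA, did not pass the test. Acaca, the cytosolic form, averaged 227 ± 5 CPM in the 4OHT libraries and 228 ± 5.18 CPM in the EtOH libraries (SD, n = 3 each), a log2 fold change of 0.00 ± 0.04. Acacb, the mitochondrial form and the member with the fewest counts, had a log2 fold change of -0.10 ± 0.09. Me1, the cytosolic malic enzyme, which yields NADPH, averaged 86.3 ± 5.97 CPM in the 4OHT libraries and 84.5 ± 3.87 CPM in the EtOH libraries, a log2 fold change of 0.03 ± 0.04.

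Of the 7 desaturases and elongases, 6 fell and 1 did not pass the test, where 24.6% of all genes tested fell. Their median log2 fold change was -0.24. Scd2, one of the stearoyl-CoA desaturases, which make monounsaturated fatty acids, had 408, 412 and 443 CPM in the 4OHT libraries, against 654, 649 and 669 CPM in the EtOH libraries. It fell most of the 40 members, by 0.64 ± 0.04, to 0.640 of its EtOH level (edgeR adjusted p = 2.67e-07). Scd1 stood at 165, 164 and 167 CPM in the 4OHT libraries, against 218, 224 and 219 CPM in the EtOH libraries, and fell by 0.41 ± 0.04 (edgeR adjusted p = 8.51e-06). Scd1 and Scd2 share 36.8% and 32.2% of their 31-base words with other Scd genes, so the split among them is an estimate. Elovl6, which elongates palmitate, had 50.6, 49.1 and 51.9 CPM in the 4OHT libraries, against 71.4, 72.9 and 76.0 CPM in the EtOH libraries. It fell by 0.54 ± 0.04, and its promoter window, printed above, held none of the motifs searched (edgeR adjusted p = 8.46e-07).

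Among the genes for other chains, Elovl1, an elongase of long saturated chains, had 17.9, 19.3 and 19.4 CPM in the 4OHT libraries, against 23.3, 20.5 and 23.1 CPM in the EtOH libraries. The EtOH library labelled lymphoma was the lowest of its arm but above all 4OHT libraries, and Elovl1 fell by 0.24 ± 0.07 (edgeR adjusted p = 0.0103). Fads1 and Fads2, the desaturases of polyunsaturated fatty acids, fell by 0.24 and by 0.15. Elovl5, an elongase of polyunsaturated chains, had a log2 fold change of 0.03 ± 0.05, and its sign changed when the pair labelled fibroblasts or lymphoma was left out.

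Both genes of glycerolipid entry fell. Lpin1, a phosphatidate phosphatase, stood at 49.6, 51.0 and 51.2 CPM in the 4OHT libraries, against 62.2, 61.6 and 64.2 CPM in the EtOH libraries, and fell by 0.31 ± 0.04 (edgeR adjusted p = 7.98e-05). Gpam, the mitochondrial acyltransferase that starts glycerolipid synthesis, had 29.8, 27.0 and 26.1 CPM in the 4OHT libraries, against 31.1, 33.6 and 36.1 CPM in the EtOH libraries. The gap was smallest in the pair labelled fibroblasts, where the log2 ratio was -0.06, against -0.32 in the pair labelled lymphoma and -0.47 in the pair labelled sarcoma. Gpam fell by 0.28 ± 0.07 (edgeR adjusted p = 0.00567), and the call was lost without the pair labelled sarcoma.

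Other genes of the same pathways were counted from a separate list of 58, of which 52 were tested: 14 fell, 17 rose and 21 did not pass the test, with a median log2 fold change of 0.05. These shares lie near those over all genes tested, of which 24.6% fell and 25.0% rose. Of the 6 other sterol enzymes, 3 fell, 1 rose and 2 did not pass. Acat1, the mitochondrial counterpart of Acat2, had 83.6, 87.4 and 82.6 CPM in the 4OHT libraries, against 122, 118 and 128 CPM in the EtOH libraries, and fell by 0.54 ± 0.05 (edgeR adjusted p = 2.72e-06). Ggps1, which leads from farnesyl diphosphate toward protein prenylation, rose by 0.50 (edgeR adjusted p = 1.41e-05) and was named after its values were seen.

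Of the 13 genes of sterol uptake, storage and efflux, 8 rose, 2 fell and 3 did not pass the test, with a median log2 fold change of 0.30, where 25.0% of all genes tested rose and 24.6% fell. Npc2, which hands cholesterol out of the lysosome, had 247, 238 and 238 CPM in the 4OHT libraries, against 111, 118 and 123 CPM in the EtOH libraries, and rose by 1.04 ± 0.05 (edgeR adjusted p = 1.13e-08). Soat1, which esterifies cholesterol for storage, stood at 84.3, 80.9 and 84.9 CPM in the 4OHT libraries, against 53.7, 46.7 and 52.9 CPM in the EtOH libraries, and rose by 0.71 ± 0.04 (edgeR adjusted p = 1.42e-07). No library of one arm came near the other arm for either gene. Abcg1, an efflux transporter, rose by 1.05 from low levels, with 3.29, 3.61 and 3.03 CPM in the 4OHT libraries, against 1.51, 1.59 and 1.67 CPM in the EtOH libraries (edgeR adjusted p = 0.000131). Apoe, a lipoprotein component, had 4.14, 4.66 and 5.06 CPM in the 4OHT libraries, against 2.35, 2.26 and 2.71 CPM in the EtOH libraries, and rose by 0.92 (edgeR adjusted p = 7.64e-05).

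The greatest difference among the pathway genes was in Ch25h, the enzyme that makes the oxysterol 25-hydroxycholesterol. Ch25h stood at 8.82, 8.91 and 9.54 CPM in the 4OHT libraries, against 0.948, 0.878 and 0.982 CPM in the EtOH libraries. It rose 9.67-fold, a log2 fold change of 3.27 ± 0.12, in each of the 3 pairs (edgeR adjusted p = 1.7e-09). The LXR gene Nr1h2 fell by 0.18, and Nr1h3 had under 1 CPM in every library and did not pass the test, both named after their values were seen. Macrophages are a known source of Ch25h, Abcg1 and Apoe. The 6 macrophage markers together held 26.0 to 28.9 CPM in the 4OHT libraries and 26.3 to 28.1 CPM in the EtOH libraries, a sum carried mostly by Cd14. Cd14, a receptor for lipopolysaccharide, had 18, 18.9 and 20.1 CPM in the 4OHT libraries, against 22.1, 21.7 and 22.9 CPM in the EtOH libraries, and fell. The other markers that passed the test rose. Cd68, a lysosomal protein, had 6.34, 6.05 and 7.30 CPM in the 4OHT libraries, against 4.84, 4.35 and 4.97 CPM in the EtOH libraries. Csf1r, the receptor for macrophage colony-stimulating factor, had 0.746, 0.489 and 0.650 CPM in the 4OHT libraries, against 0.316, 0.236 and 0.212 CPM in the EtOH libraries. Itgam, an integrin of myeloid cells, had 0.984, 0.601 and 0.542 CPM in the 4OHT libraries, against 0, 0 and 0.0266 CPM in the EtOH libraries. These 3 markers thus rose beside Ch25h, Abcg1 and Apoe at low levels, while Adgre1 and Lyz2 held at most 0.108 and 0.144 CPM, and their part in these results was not tested. Of the 6 adipocyte markers, Cidec, Lep and Cfd were at 0 in every library, and the list held 6.45 to 6.80 CPM in the 4OHT libraries and 6.07 to 6.72 CPM in the EtOH libraries. The 6 epithelial markers held 23.7 to 25.8 CPM in the 4OHT libraries and 9.05 to 10.1 CPM in the EtOH libraries, where the keratin genes Krt8 and Krt18 rose and Krt5 was at 0 in every library. The 6 skeletal muscle markers held 0.339 to 0.975 CPM in the 4OHT libraries and 0.386 to 0.690 CPM in the EtOH libraries. The fall of the fibroblast markers given above and the rise of these keratins ran beside every result here, and their part in them was not tested.

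**Figure D3:**
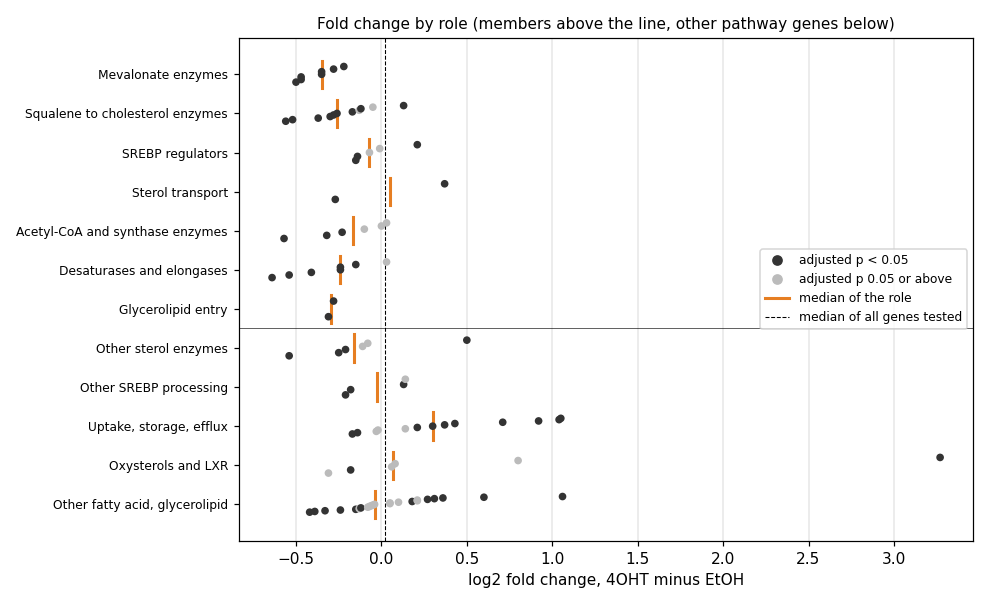
Log2 fold change, 4OHT minus EtOH (horizontal axis), of each tested gene by role, with the 40 members above the line and the 52 other pathway genes below it. Dark points passed the edgeR test, pale points did not, orange bars are role medians and the dashed line is the median of all genes tested (0.02). The medians of the members' enzyme roles lie left of 0, from -0.35 to -0.17, and that of uptake, storage and efflux lies right of it, at 0.30, with Ch25h at 3.27.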

How the data were processed

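Each deposited file holds, per transcript, the authors' kallisto 0.43.0 output, estimated counts and TPM, on GRCm38 (per the submitters' processing notes). Whether kallisto was told the strand was not given in the sources used here. Of 76055 targets, 75049 matched GENCODE M21, and the other 1006, with 0.393% to 0.41% of counts, were left out. Of the members' 125 coding targets, 95.2% have exactly the coding length, so untranslated regions were not counted. Estimated counts were summed per gene and rounded, and the authors' TPM, summed likewise, served the alternatives only.

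The arms were compared with edgeR 4.0.16 (quasi-likelihood, two-sided, TMM, filterByExpr by arm, R 4.3.3) with the labelled cell type as block, and p-values were adjusted over all 15933 genes tested. The pairing comes from the labels, and deviations within pairs correlated at -0.0093, 0.0984 and 0.0791. The fit has 2 residual degrees of freedom and 9.23 prior ones. Each SE is the absolute log2 fold change divided by the square root of the F statistic. Each group holds 1 library, the labelled cell types serve as replicates, and separate cultures are not stated. The p-values thus measure only how these libraries spread, which may be technical. Alternatives used DESeq2 1.42.0, limma 3.58.1, other scalings and filters, no block, protein-coding features and leaving out each pair.

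Members and lists were chosen with earlier results of these data known. Values per library were given for SREBP regulators, transport and glycerolipid genes, for up to 4 called members per enzyme role with the largest change (Acat2 was added), for members that rose, and for other pathway genes called at 0.5 or more on the log2 scale, with Ch25h and Mdm2. Some genes covered by this rule are not reported here. Promoters were read from the RefSeq table of GRCm38.p6 with Python 3.11.15.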

Additional observations from a re-analysis of the deposited data

How the results depend on the processing

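Of the 29 members that fell, 10 kept their call and direction under all 13 alternatives: Acat2, Hmgcs1, Mvk, Pmvk, Mvd, Tm7sf2, Acss2, Scd1, Scd2 and Elovl6. Of the 3 members that rose, 0 did so. Srebf1 lost its call with both limma fits and Abca1 with limma on log2(TPM + 0.1), while Sc5d kept its call under 7 alternatives. The matching shares over all genes tested were not counted. The counts moved most with limma on TPM, where the cause was not tested. With log2(TPM + 1), 10 members fell and 1 rose, 6 sterol and 4 fatty acid enzymes fell, and 3 other pathway genes fell. With log2(TPM + 0.1), these counts were 10, 0, 6, 4 and 2. Over all 15933 genes tested, 1552 fell and 2352 rose with log2(TPM + 1), and 1589 fell and 2401 rose with log2(TPM + 0.1). The members' median log2 fold change was -0.21 and -0.22 in these fits, against -0.25 with edgeR. Of all calls, 60.2% were higher with limma on TPM, against 50.4% with edgeR. With DESeq2, 24 members fell and 2 rose, where 2489 of 15933 genes fell and 2541 rose.

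Leaving out each pair in turn gave 25 to 27 members that fell, 2 to 3 that rose, 13 to 14 sterol enzymes and 9 fatty acid enzymes that fell, and 10 to 15 other pathway genes that fell and 14 to 17 that rose. In these fits, 3185 to 3940 of the 15981 to 16019 genes tested fell and 3256 to 3537 rose. With no replicate block, 29 members fell and 3 rose, where 3772 of 15933 genes fell and 3742 rose. Mdm2 then passed the test at 0.13 (edgeR adjusted p = 0.0349), and it passed as higher under 3 of the 13 alternatives, this one included. The block changed no other call of a member.

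Alternatives were run for the 40 members, Mdm2, Ch25h and the other pathway genes called at 0.5 or more on the log2 scale, and of these the genes whose sign changed lay near 0 and did not pass the test. Scap was at 0.01 with protein-coding genes only, with protein-coding targets only and without the pair labelled sarcoma. Acaca was at 0.02 with both limma fits, at 0.01 with both protein-coding alternatives and at 0.00 without the pair labelled fibroblasts. Me1 was at -0.01 and Elovl5 at -0.03 without the pair labelled fibroblasts, and Elovl5 was at -0.01 without the pair labelled lymphoma. Without any 1 pair, Me1 ranged from -0.01 to 0.05. Depth limits low genes such as Nr1h3 more than any member, of which the lowest count was 166.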

Other observations

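Fatty acid and glycerolipid genes outside the members numbered 29, of which 23 were tested, 6 fell, 6 rose and 11 did not pass the test, with a median log2 fold change of -0.04. These shares lie near the 24.6% that fell and 25.0% that rose over all genes tested. The acyl-CoA synthetases, which activate fatty acids, did not move together. Acsl1 had 35.1, 31.8 and 32 CPM in the 4OHT libraries, against 22.0, 21.5 and 21.6 CPM in the EtOH libraries, and rose by 0.60 ± 0.05 (edgeR adjusted p = 3.3e-06). Acsl4 rose by 0.36 and Acsl5 by 0.18, while Acsl3 fell by 0.33. These 3 were named after their values were seen. Elovl4, an elongase of very long chains, had 1.36, 1.24 and 1.52 CPM in the 4OHT libraries, against 0.667, 0.608 and 0.690 CPM in the EtOH libraries, and rose by 1.06 ± 0.22 (edgeR adjusted p = 0.00171). Slc25a1, which exports citrate from mitochondria ahead of Acly, fell by 0.39 and was also named after its values were seen.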
